A study of Mus musculus with 6 samples.

Results

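The genes described here are 36 genes of the unfolded protein response and the integrated stress response, among 17119 gene symbols in a table of read counts from mouse liver. They were listed by name as folding factors of the endoplasmic reticulum (ER), genes of ER-associated degradation, stress sensors and targets of the transcription factor ATF4, and all 36 were found in the table. All 36 also passed the filter on low counts that left 12706 genes for testing. RNA came from unfractionated liver of 6 samples, all fed for 12 weeks with HFHCD, a diet rich in fat and cholesterol. In 3 samples, called Hete, the genotype was Clec4f-iCre;Cebpbfl/+, so that 1 Cebpb allele is lost in cells that express the Cre recombinase. The 3 WT samples came from Clec4f-iCre;Cebpb+/+ littermates, which carry the same Cre and ate the same diet. Clec4f is active in Kupffer cells, the resident liver macrophages. By this design hepatocytes and other liver cells should keep both Cebpb alleles in either group, but recombination was not measured here. For replicates 2 and 3 the labels spell the driver Clec5f and Clec6f, whereas the design text names Clec4f throughout. The labels do not tie the samples to separate animals, so the spread behind each p-value may be technical in part.

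The unfolded protein response adjusts the ER to its load of proteins. Misfolded proteins release the chaperone BiP (Hspa5) from the membrane sensors IRE1 (Ern1), PERK (Eif2ak3) and ATF6, which leads to spliced Xbp1 RNA, to phosphorylated eIF2 and to a cleaved ATF6 fragment that enters the nucleus. PERK shares eIF2 with kinases that sense amino acid shortage, haem and viral RNA. This common branch, the integrated stress response, lowers general translation while ATF4 protein rises and switches on genes for amino acid supply, redox balance and cell fate. The liver secretes large amounts of plasma protein and handles much lipid, and both branches are often studied in fatty liver. Splicing, phosphorylation and cleavage leave no mark in a count of reads per gene, so only the RNA level of each gene was measured here.

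Sequences that can connect such genes to their activators were searched for before the transcription starts. The matches are shown because they were found without using any level. The genes were listed for their part in these responses, so a higher share than among all promoters could be foreseen and tests nothing. Shares of the listed genes count gene symbols, and those of all promoters count promoter entries. RefSeq sequences of build GRCm38.p6 were available for 33 of the 36 genes, and the 250 bases before each start were searched on both strands. Atf6, Hyou1 and Manf were not searched. The ER stress response element, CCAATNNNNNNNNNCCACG, stood in 8 of the 33 genes (24.2%), against 37 of all 32851 promoters (0.113%). Its matches follow, read in the direction of the element, with the fixed letters in capitals. Hsp90b1 held 2 of them.
Calr: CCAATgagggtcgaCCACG
Canx: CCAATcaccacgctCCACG
Creld2: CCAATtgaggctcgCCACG
Dnajc3: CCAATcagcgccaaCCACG
Hsp90b1: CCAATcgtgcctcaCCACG
Hsp90b1: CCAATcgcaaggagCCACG
Hspa5: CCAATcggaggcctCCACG
Pdia6: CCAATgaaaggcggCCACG
Syvn1: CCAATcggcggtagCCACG

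The nearest of these to its start was that of Syvn1, 26 to 44 bases before it (chr19:6046532-6046550), and the farthest was one of the 2 in Hsp90b1, 194 to 212 bases before it (chr10:86705638-86705656). The related element ERSE-II, ATTGGNCCACG, matched Herpud1 alone among the 33, against 10 of all promoters (0.0304%). The site of C/EBP and ATF proteins, searched as TGATGNAA, matched Asns, Atf3, Chac1, Fgf21 and Herpud1, which is 15.2% of the 33 genes against 3.45% of all promoters. The shorter XBP1 site TGACGTGG matched 0 of the 33, against 0.563% of all promoters. No match overlapped a match of another motif. A match describes letters only and is not evidence of binding.

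The 250 bases before the start are given for 5 genes whose levels are described below, each written along the strand of its gene, with the fixed letters of every match in capitals. Matches on the opposite strand, as in Creld2, appear as their reverse complement. Hspa5 and Creld2 carry the ER stress response element, Herpud1 carries ERSE-II and a C/EBP-ATF match, and Asns and Fgf21 carry a C/EBP-ATF match.
Hspa5 (chr2:34771840-34772089, plus strand): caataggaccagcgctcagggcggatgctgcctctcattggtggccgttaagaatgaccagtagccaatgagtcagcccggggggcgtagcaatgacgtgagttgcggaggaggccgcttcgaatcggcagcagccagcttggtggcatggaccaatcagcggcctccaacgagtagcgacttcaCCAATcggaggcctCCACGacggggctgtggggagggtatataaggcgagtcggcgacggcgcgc
Creld2 (chr15:88819396-88819645, plus strand): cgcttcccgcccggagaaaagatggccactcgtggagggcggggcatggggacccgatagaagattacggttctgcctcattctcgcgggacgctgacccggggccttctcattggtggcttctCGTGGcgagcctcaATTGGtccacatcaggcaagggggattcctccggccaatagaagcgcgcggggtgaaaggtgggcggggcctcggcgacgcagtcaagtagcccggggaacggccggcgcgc
Herpud1 (chr8:94386179-94386428, plus strand): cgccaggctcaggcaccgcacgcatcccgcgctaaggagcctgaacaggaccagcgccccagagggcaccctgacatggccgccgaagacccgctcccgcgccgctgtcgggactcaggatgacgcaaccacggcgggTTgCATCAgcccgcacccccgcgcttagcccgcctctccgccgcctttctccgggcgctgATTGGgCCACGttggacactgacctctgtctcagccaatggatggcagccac
Asns (chr6:7693210-7693459, minus strand): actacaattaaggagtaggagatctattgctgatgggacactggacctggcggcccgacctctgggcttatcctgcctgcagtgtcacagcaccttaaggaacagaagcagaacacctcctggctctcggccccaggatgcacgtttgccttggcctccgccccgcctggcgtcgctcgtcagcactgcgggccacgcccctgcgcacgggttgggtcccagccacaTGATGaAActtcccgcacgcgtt
Fgf21 (chr7:45615491-45615740, minus strand): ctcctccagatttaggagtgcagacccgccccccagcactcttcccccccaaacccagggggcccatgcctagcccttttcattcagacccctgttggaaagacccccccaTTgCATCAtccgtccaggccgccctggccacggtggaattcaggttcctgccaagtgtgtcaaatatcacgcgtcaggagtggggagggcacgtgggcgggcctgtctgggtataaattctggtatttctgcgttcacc

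Library totals lay between 16895322 and 17149924 counts in Hete and between 17665622 and 17750755 in WT. Levels are given as CPM, the read count scaled to library size with edgeR's TMM factors. Cebpb, the targeted gene, measured 204, 498 and 269 CPM in Hete and 506, 308 and 340 CPM in WT livers, with overlap between the groups (log2 fold change −0.25 ± 0.37, edgeR adjusted p = 0.864). Clec4f, the Kupffer cell marker whose promoter drives the Cre, measured 4.31, 4.97 and 3.90 CPM in Hete livers, against 48.6, 38.5 and 5.42 CPM in WT livers, and WT replicate 3 stood near the Hete libraries (edgeR adjusted p = 0.260). Without WT replicate 3 the 36 genes had 0 calls as well. Alb, the hepatocyte albumin gene, took 6.89% to 9.30% of counts in every library. The exocrine pancreas, a tissue rich in ER chaperones, had 4 of 8 listed markers in the table, with 0 counts of Prss2 and Cela3b in any library. The other 2 were detected, Cela1 with 193, 226 and 159 counts in Hete and 136, 119 and 154 counts in WT livers, without overlap (log2 fold change 0.55, edgeR adjusted p = 0.252), and Cela2a with 4 to 27 counts per library. Monocyte and recruited macrophage markers had negative fold changes for all 9 genes. Of these, Ccr2 and Lyz2 passed the threshold, against 0.582% of all genes tested in either direction. Groups did not overlap for 8 of the 9 (88.9%), against 18.4% of all genes tested. The summed level of the 9 was 101 to 129 CPM in Hete livers and 257 to 478 CPM in WT livers. It was mostly Lyz2, at −1.68. Of the 9 Kupffer cell markers 0 passed the threshold. Groups did not overlap for 5 of them (55.6%), against 18.4% of all genes tested. These 5 were lower in every Hete library. Their log2 fold changes were −2.81 for Clec4f, −2.98 for Marco, −2.40 for Spic, −1.22 for Cd5l and −0.58 for Vsig4. The groups overlapped for Timd4 (−0.49), Folr2 (0.41), Fcna (0.12) and C6. The mean of the 9 was 3.11 to 3.41 log2 CPM in Hete livers and 3.60 to 4.78 log2 CPM in WT livers, while their sum of 349 to 582 CPM in Hete and 450.5 to 726 CPM in WT livers was mostly C6, at 0.10. Plasma cells express Xbp1 and ER chaperones strongly. Of their 7 markers tested 0 passed, with 3 positive and 4 negative fold changes. Jchain (−0.99) and Irf4 (−0.80) did not overlap, 28.6% of the list against 18.4% of all genes tested. Pou2af1 (−0.60), Prdm1 (−0.44), Mzb1 (0.42) and Derl3 (0.66) overlapped between the groups. The summed level of the 7 markers, 238 to 303 CPM in Hete and 243 to 334 CPM in WT livers, was mostly Sdc1, at 0.01. The part of these cell types in the results was not tested. In unfractionated tissue, fewer cells of a type and less RNA per cell cannot be told apart.

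None of the 36 genes passed the threshold between Hete and WT livers in edgeR's quasi-likelihood test at a Benjamini-Hochberg adjusted p of 0.05 over all 12706 genes. Over all genes 0.582% passed, 0.559% lower and 0.0236% higher in Hete. The smallest adjusted p among the 36 was 0.282, for Fgf21, which was also the 1 gene of the list with an unadjusted p under 0.05, against 13.2% of all genes. DESeq2 and limma-voom also called 0 of the 36, each with 1 at an unadjusted p under 0.05. The Hete and WT libraries did not overlap for 1 of the 36 genes, against 18.4% of all genes tested. The median log2 fold change, Hete over WT, was −0.15 over the 36 genes, 13 positive and 23 negative, and 0.00481 over all genes. In the fit of all 6 libraries neither share of the 36 genes was above that of all genes. Without WT replicate 2, however, 7 of the 36 genes (19.4%) had an unadjusted p under 0.05, against 11.7% of all genes. These were Creld2, Ddit3, Dnajb9, Manf, Psat1, Syvn1 and Xbp1, all 7 with negative fold changes, and none passed the adjusted threshold.

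The intervals show which differences the 3 against 3 libraries could still hold. For 27 of the 36 genes the 95% interval of the log2 fold change stayed between −1 and 1, that is within 2-fold either way, as it did for 75.5% of all genes. For 10 genes (Calr, Canx, Dnajc3, Pdia3, Pdia4, Pdia6, Sel1l, Edem1, Atf4 and Atf5) it stayed within 0.5 log2 units either way, a share of 27.8% against 41.3% of all genes. The intervals of Xbp1, Atf3, Creld2, Asns, Psat1, Phgdh, Trib3, Chac1 and Fgf21 reached beyond 2-fold.

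**Figure D1:**
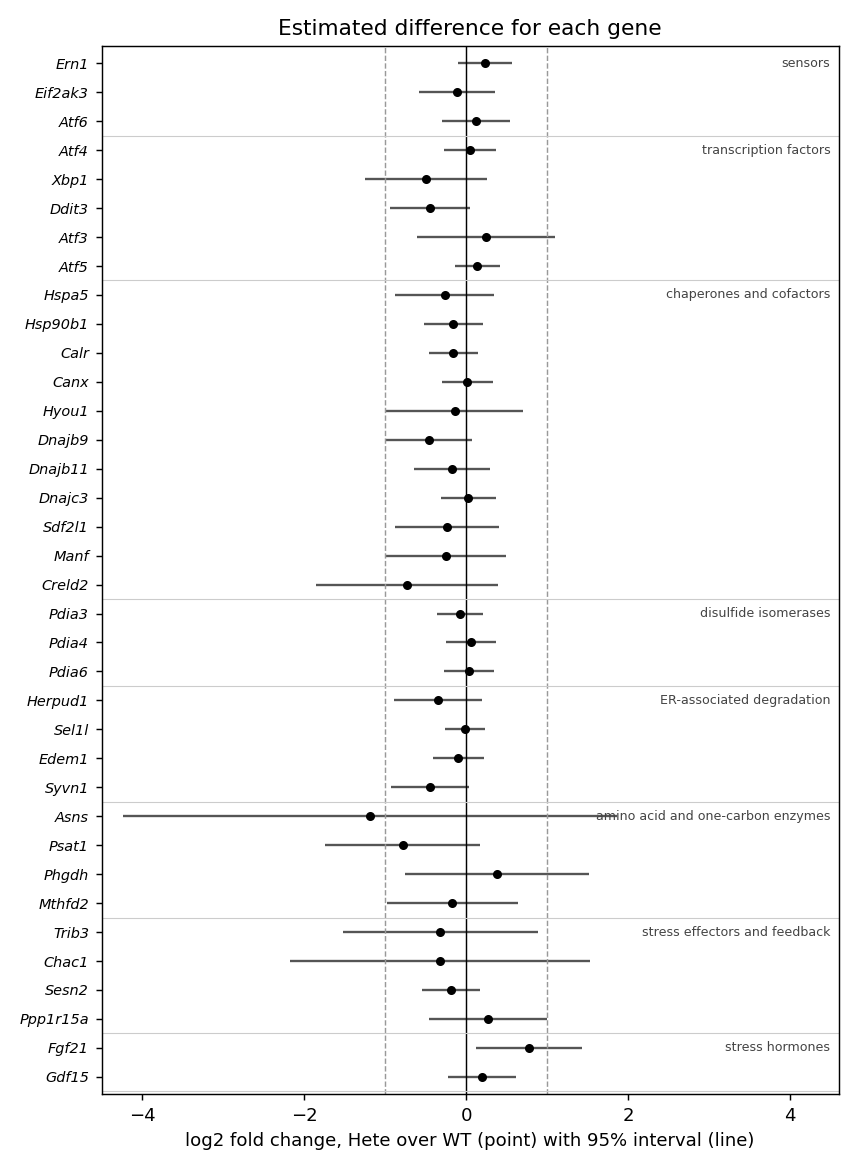
Log2 fold change, Hete over WT, of each of the 36 genes on the horizontal axis (points) with its 95% interval from edgeR (lines, 3 libraries per group), with dashed lines at −1 and 1. All intervals but that of Fgf21, 0.12 to 1.44, include 0, and the widest is that of Asns, −4.24 to 1.86.

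Per kilobase of exon, using exon lengths of GENCODE M21, the genes spanned a 1345-fold range of mean level. Calr, which binds calcium and glycoproteins, was the most abundant at 309 ± 28.8 CPM per kilobase in Hete and 344 ± 37.6 in WT livers (SD, n = 3 each). Herpud1, Atf5, Hsp90b1, Hspa5 and Pdia3 followed, with means over 6 libraries between 141 and 269 CPM per kilobase. The sensors stood far lower, with Ern1 at 8.55, Atf6 at 6.83 and Eif2ak3 at 2.78 CPM per kilobase over all libraries. The serine pathway genes closed the order, Psat1 at 0.361 and Phgdh at 0.243 CPM per kilobase. Of the 35 neighbouring pairs in this order, 31 had overlapping ranges over the libraries, so the exact rank within each stretch is not resolved.

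The 3 sensors overlapped between the groups, and none passed the threshold. Ern1, whose product splices Xbp1 RNA, measured 70.5, 91.3 and 64.8 CPM in Hete replicates 1, 2 and 3 and 57.8, 70.0 and 64.7 CPM in the WT replicates. Hete replicate 2 was the highest library and the groups overlapped (log2 fold change 0.23 ± 0.15 SE, edgeR adjusted p = 0.577). Atf6 measured 63.0, 84.1 and 50.4 CPM in Hete and 68.1, 57.7 and 54.8 CPM in WT livers. Eif2ak3, the kinase PERK, measured 13.3, 19.1 and 15.9 CPM in Hete and 16.5, 13.4 and 22.3 CPM in WT livers. Their log2 fold changes of 0.13 ± 0.18 for Atf6 and −0.11 ± 0.21 for Eif2ak3 were smaller than their standard errors.

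Among the transcription factors, Xbp1 and Ddit3 had the largest differences, and in each 1 or 2 WT libraries stood high. Xbp1, the effector of IRE1, measured 169.8, 170.1 and 156 CPM in Hete livers, against 358, 144 and 196 CPM in WT livers. The Hete libraries agreed closely, WT replicate 1 stood alone at the top and WT replicate 2 was the lowest of all 6. The log2 fold change was −0.49 ± 0.32 (edgeR adjusted p = 0.606), and without WT replicate 1 it was −0.02. Ddit3, the pro-apoptotic factor CHOP, measured 7.80, 7.33 and 9.86 CPM in Hete and 13.97, 8.32 and 11.8 CPM in WT livers, with overlap through Hete replicate 3 and WT replicate 2 (−0.45 ± 0.22, edgeR adjusted p = 0.443).

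Atf5, an ATF4 relative that also acts in the mitochondrial stress response, measured 332, 363 and 417 CPM in Hete and 321, 338 and 349 CPM in WT livers (0.14 ± 0.12, edgeR adjusted p = 0.721). Atf4 RNA averaged 89.7 ± 12.5 CPM in Hete and 86.7 ± 11.9 CPM in WT livers (SD, n = 3 each), and its interval of −0.27 to 0.37 was among the narrower ones. Because ATF4 is controlled by translation, its RNA is no measure of its activity. Atf3, a stress-induced factor downstream of ATF4, lay between 1.95 and 5.88 CPM in Hete livers, a range that contained the WT range of 2.96 to 4.27 CPM. Reads of Ddit3 and Atf5 may include some from genes on the opposite strand, since Ddit3 overlaps Mars and Atf5 overlaps Nup62 and Il4i1 in GENCODE M21 and the strand setting of the counter is not given. The same holds for Pdia3, which overlaps Catsper2, and Ppp1r15a, which overlaps Tulp2.

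The 11 ER chaperones and their cofactors had a median log2 fold change of −0.17, with 9 negative and 2 positive values and 0 past the threshold. Dnajb9, the co-chaperone that restrains IRE1, measured 35.6, 47.1 and 44.2 CPM in Hete livers, against 73.3, 38.7 and 62.1 CPM in WT livers. WT replicates 1 and 3 lay above every Hete library and WT replicate 2 among them (−0.46 ± 0.23, edgeR adjusted p = 0.475). Creld2, an ER-resident protein with isomerase activity, measured 40.9, 44.7 and 26.7 CPM in Hete livers, against 103, 34.2 and 49.4 CPM in WT livers. WT replicate 1 held more than any other library, and the estimate was imprecise (−0.73 ± 0.45, edgeR adjusted p = 0.597). Calr measured 903, 964 and 799.8 CPM in Hete and 1114, 911 and 946 CPM in WT livers (−0.16 ± 0.13, edgeR adjusted p = 0.714).

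Hspa5, singled out here as the central chaperone after its values were seen, measured 626, 652 and 439.9 CPM in Hete livers and 952, 482 and 631 CPM in WT livers. WT replicate 1 was the highest library and Hete replicate 3 the lowest, while the other 4 fell between them in mixed order (−0.27 ± 0.26, edgeR adjusted p = 0.768). Hsp90b1, the ER form of HSP90, averaged 638 ± 98.3 CPM in Hete and 710.3 ± 113 CPM in WT livers (SD, n = 3 each). Hyou1, the nucleotide exchange factor of BiP, averaged 169.8 ± 49.9 CPM in Hete and 187 ± 73.9 CPM in WT livers. Canx, the membrane lectin chaperone, differed by 0.01 ± 0.14 and Dnajc3, a BiP cofactor that also inhibits PERK, by 0.03 ± 0.15 on the log2 scale. The cofactors Dnajb11, Sdf2l1 and Manf had log2 fold changes of −0.17 ± 0.21, −0.24 ± 0.27 and −0.25 ± 0.31. Manf shares exon sequence with Rbm15b and Dcaf1 in GENCODE M21, so its counts are uncertain.

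The 3 disulfide isomerases, which form and reshuffle disulfide bonds, varied by 1.29-fold to 1.33-fold between the lowest and highest library. Pdia3 measured 445, 452 and 395 CPM in Hete and 508, 406 and 451 CPM in WT livers. Pdia4 measured 239, 219 and 183 CPM in Hete and 216, 179 and 217 CPM in WT livers. Pdia6 measured 271, 295 and 238 CPM in Hete and 303, 236 and 246 CPM in WT livers. The groups overlapped for all 3, and their 95% intervals together lay between −0.36 and 0.37 on the log2 scale.

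The 4 genes of ER-associated degradation, which hands misfolded proteins to the proteasome, all had negative log2 fold changes, with a median of −0.22 and 0 past the threshold. The median was −0.09 without WT replicate 1 and −0.13 without Hete replicate 1. It was −0.27 without Hete replicate 2 and −0.31 without WT replicate 2. Syvn1, the ubiquitin ligase HRD1, measured 114, 111 and 109.7 CPM in Hete livers, against 201, 104 and 149.6 CPM in WT livers. The Hete libraries were nearly equal and the WT libraries spread around them (−0.44 ± 0.21, edgeR adjusted p = 0.433). Syvn1 overlaps Mrpl49 on the opposite strand in GENCODE M21. Herpud1, a membrane protein that organises the ligase complex, measured 360.1, 718 and 584 CPM in Hete and 792, 615 and 700.0 CPM in WT livers. Hete replicate 1 stood well below the other 5 libraries (−0.34 ± 0.24, edgeR adjusted p = 0.630). Edem1, a lectin-like factor for glycoproteins, measured 168, 154 and 133 CPM in Hete and 185, 141 and 161 CPM in WT livers (−0.10 ± 0.14, edgeR adjusted p = 0.855). Sel1l, the partner of HRD1, spanned just 1.19-fold between its lowest and highest library, the least of the 36 genes, with a difference of −0.01 ± 0.11.

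**Figure D2:**
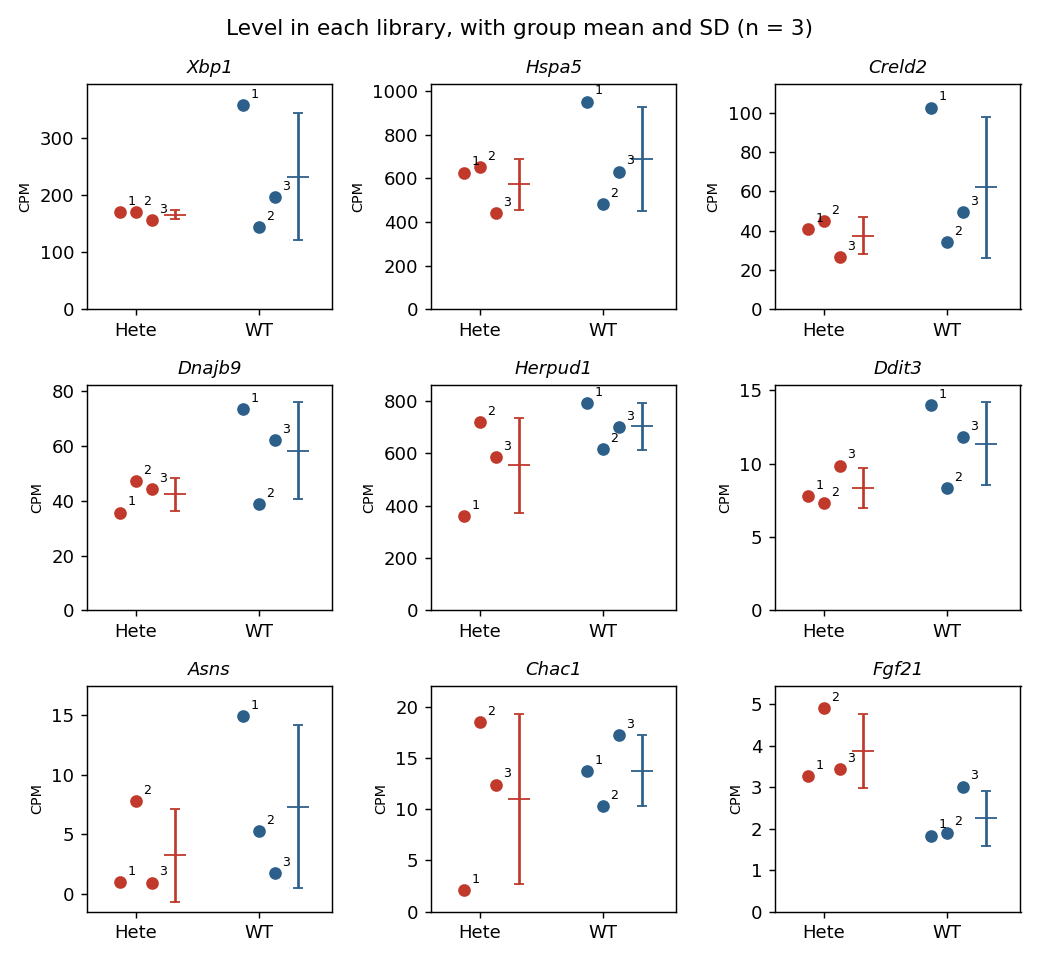
Level in CPM (vertical axes, from 0 except where the SD of Asns reaches below it) of 9 genes in each Hete and WT library, with replicate numbers beside the points and bars for the group mean and SD (n = 3). WT replicate 1 is the highest library for Xbp1, Hspa5, Creld2, Dnajb9, Herpud1, Ddit3 and Asns, Hete replicate 1 is lowest for Chac1 at 2.10 CPM, and Fgf21 is the gene whose groups do not overlap.

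The 4 genes listed here as ATF4 targets for amino acid and one-carbon supply were weakly expressed. Their median log2 fold change was −0.48, with 0 past the threshold. Single libraries set that median, which was −0.00664 without WT replicate 1, −0.20 without Hete replicate 3 and −0.83 without Hete replicate 2. Asns, the asparagine synthetase, measured 0.932, 7.75 and 0.918 CPM in Hete livers and 14.9, 5.22 and 1.70 CPM in WT livers. Its libraries spanned 16.3-fold, the widest of the 36 genes, with WT replicate 1, Hete replicate 2 and WT replicate 2 high and the rest low (−1.19 ± 1.19, edgeR adjusted p = 0.781). The log2 fold change of Asns was −0.10 without WT replicate 1, −0.74 without Hete replicate 1 or Hete replicate 3, and −2.96 without Hete replicate 2. Psat1, the transaminase of serine synthesis, measured 1.05, 1.70 and 0.631 CPM in Hete and 2.44, 1.25 and 2.13 CPM in WT livers, from 11 to 40 reads per library (−0.78 ± 0.42, edgeR adjusted p = 0.497). Phgdh, which opens the same pathway, measured 0.641, 0.909 and 0.516 CPM in Hete and 0.244, 0.762 and 0.547 CPM in WT livers, on 4 to 15 reads per library. Mthfd2, a mitochondrial folate enzyme, averaged 2.92 ± 1.14 CPM in Hete and 3.28 ± 1.04 CPM in WT livers (SD, n = 3 each).

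The 4 feedback and effector genes had a median log2 fold change of −0.25, with 0 past the threshold. That median was −0.000224 without Hete replicate 1, −0.13 without Hete replicate 2, −0.06 without WT replicate 2 and −0.11 without WT replicate 3. It was more negative, at −0.35 without Hete replicate 3 and −0.28 without WT replicate 1. Trib3, a pseudokinase that restrains ATF4, measured 4.48, 4.54 and 9.004 CPM in Hete livers and 2.93, 10.9 and 8.65 CPM in WT livers, so WT replicate 1 was here the lowest library (−0.32 ± 0.50, edgeR adjusted p = 0.877). Sesn2, a sestrin that curbs growth signalling, measured 11.1, 9.99 and 12.6 CPM in Hete and 10.9, 12.9 and 14.4 CPM in WT livers (−0.18 ± 0.16, edgeR adjusted p = 0.724). Ppp1r15a, the phosphatase subunit GADD34 that restores translation, measured 28.2, 26.6 and 15.5 CPM in Hete and 27.1, 14.4 and 16.8 CPM in WT livers. The groups overlapped (0.27 ± 0.31, edgeR adjusted p = 0.804). Chac1, which breaks down glutathione and was singled out after its values were seen, measured 2.10, 18.5 and 12.4 CPM in Hete and 13.7, 10.3 and 17.2 CPM in WT livers. Its span of 8.81-fold came with Hete replicate 1, the library that was also lowest for Herpud1. That library was the lowest for 4 of the 36 genes (11.1%), against 17.2% of all genes tested.

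The 2 stress hormones had positive fold changes and did not pass the threshold. Fgf21, a hormone that hepatocytes secrete under metabolic stress, measured 3.26, 4.91 and 3.44 CPM in Hete livers, against 1.83, 1.90 and 3.01 CPM in WT livers. All 3 Hete libraries lay above all 3 WT libraries, on 56, 81 and 60 reads in Hete and 30, 35 and 55 reads in WT livers, so that Hete replicate 1 and WT replicate 3 were nearly equal. The log2 fold change was 0.78 ± 0.29, with a 95% interval of 0.12 to 1.44 and an edgeR adjusted p of 0.282. Over the alternatives run, the adjusted p lay between 0.220 and 0.619 and the log2 fold change between 0.46 and 1.05, the lowest without WT replicate 1 and Hete replicate 2 together and the highest without WT replicate 3. Gdf15, a cytokine-like hormone that curbs appetite, measured 15.0, 19.3 and 20.6 CPM in Hete and 19.1, 12.4 and 16.4 CPM in WT livers (0.20 ± 0.19, edgeR adjusted p = 0.751).

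**Figure D3:**
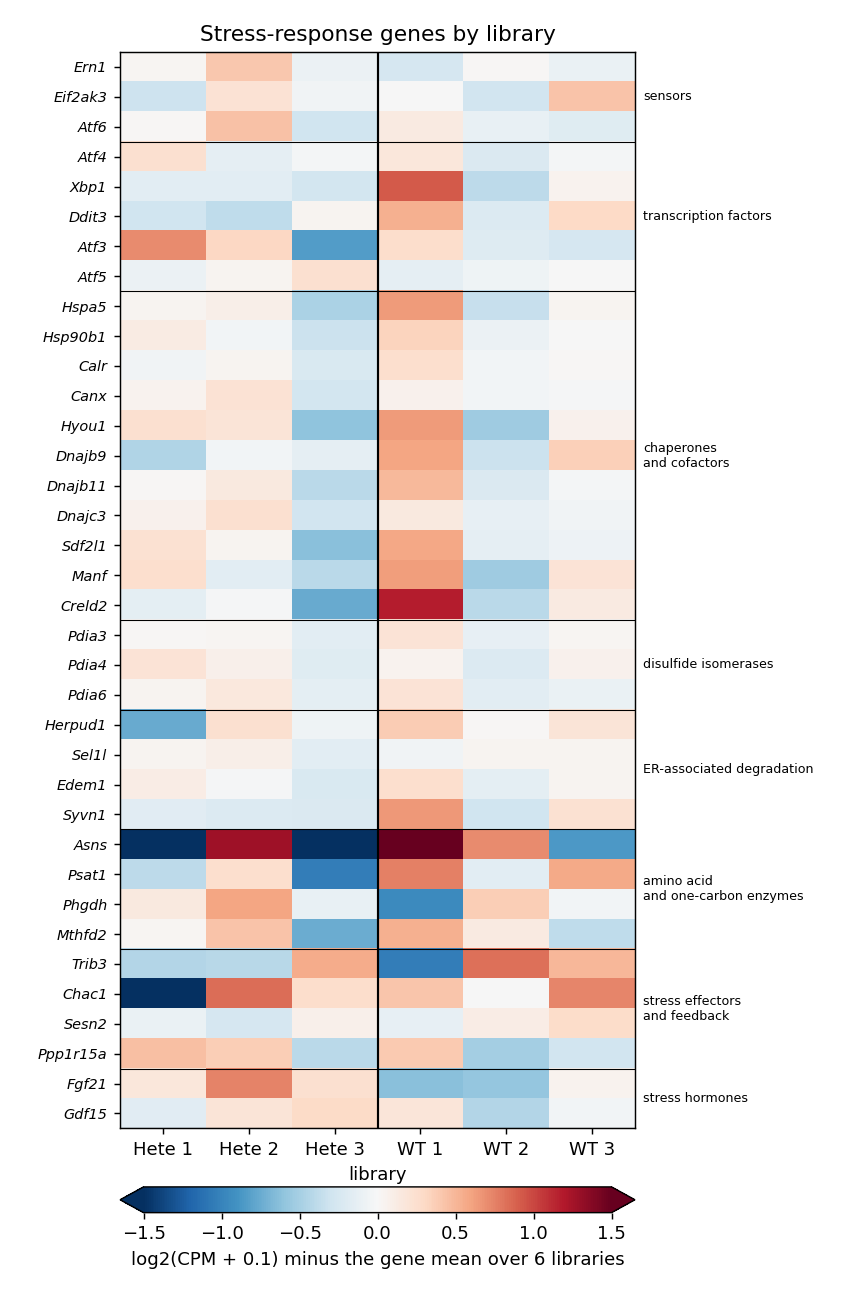
Heat map of the 36 genes (rows, grouped by role) in the 6 libraries (columns), coloured by log2(CPM + 0.1) minus the mean of each gene over the libraries, with colours capped at −1.5 and 1.5. WT replicate 1 is the highest library for 19 of the 36 genes and Hete replicate 3 the lowest for 17.

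Within each group, a single library was often at the edge of the range, as it was for other genes of the same pathways. WT replicate 1 was the highest of the 6 libraries for 19 of the 36 genes, against 20.8% of all genes tested, and for 9 of the 11 chaperones and cofactors. Hete replicate 3 was the lowest for 17 of the 36 genes, against 16.5% of all genes tested, and for 9 of the same 11. Of the 103 further pathway genes tested, 44.7% were highest in WT replicate 1 and 37.9% lowest in Hete replicate 3, and whether the 36 genes differ from them in this was not tested. In WT replicate 1 every chaperone and cofactor stood above the mean of the other 2 WT libraries, by a median of 0.60 log2 units, against −0.03 for all genes. The 8 genes with the ER stress response element were above it too, by 0.10 to 1.32 log2 units with a median of 0.35. The 25 genes searched that lacked this element, some with a match of another motif, had a median of 0.30 and a range of −1.69 to 2.28. Sensors had a median of −0.07 and the feedback and effector genes of −0.14 by the same measure.

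The acute phase list, 12 genes of the hepatocyte response to inflammation, had negative fold changes throughout. Their median log2 fold change was −0.72, with 0 past the threshold. Groups did not overlap for 4 of them, Saa3, Orm1, Orm2 and Lcn2 (33.3%), against 18.4% of all genes tested. All 12 were highest in WT replicate 1, and their mean level was 7.68, 8.38 and 7.76 log2 CPM in Hete livers, against 10.07, 8.31 and 8.67 log2 CPM in WT livers. The mean of the chaperones and cofactors was 7.34, 7.37 and 6.89 log2 CPM in Hete livers, against 7.81, 7.05 and 7.36 log2 CPM in WT livers. Both lists peaked in WT replicate 1, and the part of the acute phase response in the chaperone levels was not tested. Of the 8 hepatocyte markers, 4 were highest in WT replicate 1, 50% against 20.8% of all genes tested. Ttr and Serpina1c were highest in Hete replicate 3, and Cyp2e1 in WT replicate 2. The summed level of the 8 was 143682 CPM in WT replicate 1, against 118674 to 141408 CPM in Hete and 110532 to 110617 CPM in the other WT libraries. That sum was mostly Alb, which was highest in Hete replicate 2.

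**Figure D4:**
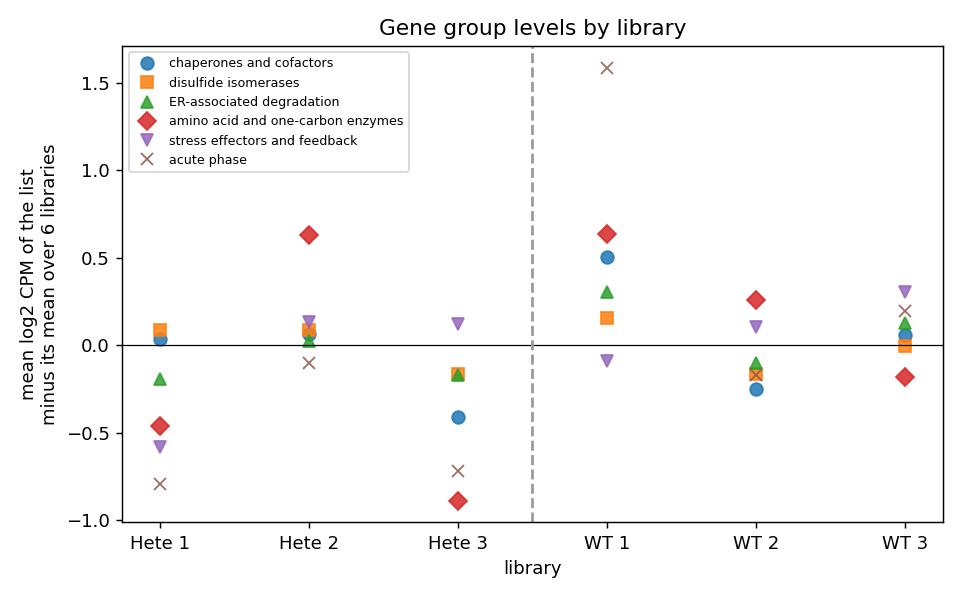
Mean log2 CPM of 5 groups of the stress-response genes and of the acute phase list in each library (horizontal axis), minus the mean of each list over the 6 libraries. The acute phase genes and the chaperones peak in WT replicate 1, at 10.07 and 7.81 log2 CPM before centring, and Hete replicate 3 has the lowest chaperone mean, 6.89.

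Without WT replicate 1, the chaperone median was no longer negative. The median log2 fold change of the chaperones and cofactors was then 0.06, 8 positive and 3 negative, and that of all 36 genes 0.05, 22 positive and 14 negative, while the median of all genes was 0.03. Hspa5, Hsp90b1, Hyou1, Dnajb11, Sdf2l1, Manf, Pdia3, Edem1 and Mthfd2 changed sign without that library. Creld2, Dnajb9, Syvn1 and Herpud1 kept a negative sign, at −0.14, −0.24, −0.17 and −0.23. Without Hete replicate 3 the chaperone median was −0.04. With 1 of the other 4 libraries left out it was more negative than with all 6, at −0.27 without Hete replicate 1, −0.25 without Hete replicate 2, −0.36 without WT replicate 2 and −0.24 without WT replicate 3, and all 11 values were negative without Hete replicate 2 or WT replicate 2. Without WT replicate 1 and Hete replicate 2 together it was −0.05, with 9 of 11 negative. In none of these fits did any of the 36 genes pass an edgeR adjusted p of 0.05.

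**Figure D5:**
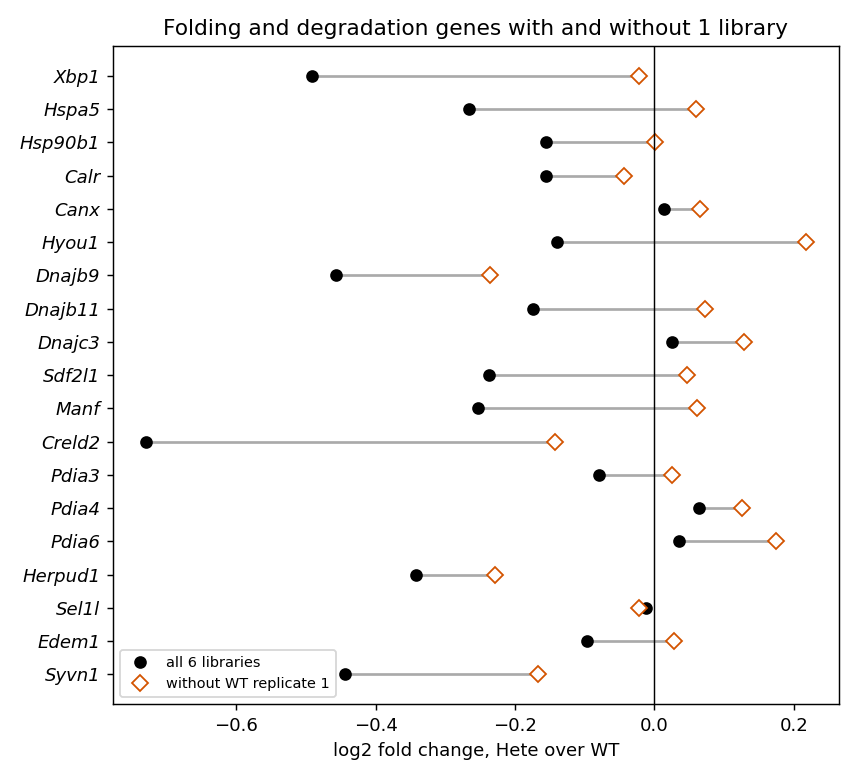
Log2 fold change, Hete over WT, of Xbp1 and the 18 folding and degradation genes with all 6 libraries (filled circles) and without WT replicate 1 (open diamonds). The estimate of Creld2 is −0.73 with all libraries and −0.14 without that one, and Hspa5 is at −0.27 and 0.06.

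Other genes of the same pathways, 109 in 8 lists, were set beside the 36. Of the 103 tested, 0 passed the threshold in edgeR, 3 had an unadjusted p under 0.05 and the median log2 fold change was −0.000166. Groups did not overlap for 10 of them, 9.71% against 18.4% of all genes. The smallest adjusted p was that of Creb3l2, an ER-anchored transcription factor of the CREB3 family that promotes secretory capacity. Creb3l2 measured 8.79, 12.1 and 11.8 CPM in Hete livers, against 27.6, 13.5 and 19.6 CPM in WT livers. All Hete libraries lay below all WT libraries (−0.89 ± 0.26, edgeR adjusted p = 0.164), and in DESeq2 the gene passed (−0.88, adjusted p = 0.0364) as the 1 gene of 106 tested there, where 3.36% of all genes were called lower. Creb3l1 of the same family differed by −0.50 ± 0.40, and Creb3l3, the liver member, by 0.04 ± 0.11.

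Of the kinases and factors around eIF2, Eif2ak4, the amino acid sensor GCN2, had the smallest p with 10.5 ± 0.687 CPM in Hete and 9.05 ± 0.492 CPM in WT livers (SD, n = 3 each; edgeR adjusted p = 0.607), and Ppp1r15b differed by 0.16 ± 0.12 on the log2 scale. Among further genes of ER-associated degradation, Derl3, a derlin, averaged 7.79 ± 1.70 CPM in Hete and 4.94 ± 2.01 CPM in WT livers with overlap (edgeR adjusted p = 0.420), and Erlec1 differed by −0.19 ± 0.12. Among folding and redox factors, Nucb2, a calcium-binding secretory protein, averaged 3.68 ± 0.831 CPM in Hete and 5.51 ± 1.15 CPM in WT livers (edgeR adjusted p = 0.373), and the isomerase Txndc5 differed by 0.21 ± 0.13. Among other ATF4 targets, Stc2, a secreted stanniocalcin, measured 0, 0.182 and 0.401 CPM in Hete livers, against 0.732, 0.653 and 0.711 CPM in WT livers, and did not pass (edgeR adjusted p = 0.321). Mthfd1l, a mitochondrial folate enzyme, averaged 2.795 ± 0.357 CPM in Hete and 3.96 ± 1.01 CPM in WT livers (edgeR adjusted p = 0.472).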

How the data were processed

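Poly(A)-selected, stranded libraries were made from 500 ng of TRIzol-extracted liver RNA, per the labels' protocols. The submitters' processing notes list Trimmomatic 0.36 along with HISAT2 2.2.1.0 and HTSeq 0.9.1 as tools and GRCm39 as build. The authors deposited unnormalized counts per gene symbol. Annotation, strand setting and filters are not given in the sources used. Columns were matched to samples by title.

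In R 4.3.3, edgeR 4.0.16 (filterByExpr, TMM, robust glmQLFit, glmQLFTest, no covariates) tested 3 Hete against 3 WT libraries over 12706 genes, with Benjamini-Hochberg adjustment at 0.05. Standard errors are the absolute log2 fold change over the square root of F. CPM values are TMM-scaled, and log2 CPM used a prior count of 2. Library totals of 16895322 to 17750755 limit genes of few reads most. Alternatives used DESeq2 1.42.0, limma-voom (limma 3.58.1), other scalings and filters, a replicate block and left-out libraries. Leaving out 2 libraries together was chosen after seeing the data, and limma-voom was run without robust moderation. The fold change estimates of the test were checked on simulated counts with planted changes. The share of planted changes recovered is not reported here.

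Replicate numbers are not stated to pair samples, and therefore no pairing was assumed. Same-numbered libraries deviated from their group means with correlations of −0.21, −0.31 and 0.19. With 3 libraries per group these values cannot decide whether samples were paired. No replicate pair agreed within sampling noise (chi-square per degree of freedom 22.2 to 83.6).

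The genes and lists were chosen with earlier results of these data known. Values in every library are given for the 3 genes with the smallest p in each role, and from each further list the 2 genes with the smallest p are named. Of the 109 further genes, Ern2, Fkbp2, Slc7a11, Pycr1 and Tnfrsf10b did not pass the filter and Mars was not matched by symbol. Protein sequences were not used here.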

Additional observations from a re-analysis of the deposited data

How the results depend on the processing

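The 36 genes had 0 calls, higher or lower, under every alternative run, with a lowest adjusted p of 0.168, for a fit without WT replicate 2. With the replicate block the 36 had 0 calls and all genes 0 lower and 0 higher, with 1427 genes at an unadjusted p under 0.05. Over all genes the main 71 lower and 3 higher calls became 441 and 82 in DESeq2, 0 and 0 in limma-voom (1686 at an unadjusted p under 0.05), 190 and 21 with no filter, 47 and 1 with at least 1 CPM in 3 samples, 36 and 1 with upper-quartile scaling, 20 and 0 with a non-robust fit, and 292 and 33 at an adjusted p of 0.1. Leaving out 1 library gave 0 to 107 lower and 0 to 15 higher calls: 0 and 0 without Hete replicate 1 or 2 (1104 and 1601 at an unadjusted p under 0.05), 107 and 15 without Hete replicate 3, and 4, 6 and 19 lower without WT replicates 1, 2 and 3. Without WT replicate 1 and Hete replicate 2 together, chosen after seeing the data, there were 4 and 0. The further pathway genes had 1 lower call in DESeq2, Creb3l2. For these counts the cause was not tested.

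Signs of small, uncalled log2 fold changes were not stable. Of the 36 genes, 15 kept their sign under every alternative. With 1 library left out, Eif2ak3 ran from −0.26 to 0.11, Atf6 from −0.086 to 0.29, Atf4 from −0.0556 to 0.17, Atf3 from −0.10 to 0.59, Hspa5 from −0.46 to 0.0602, Hsp90b1 from −0.25 to 0.000498, Canx from −0.10 to 0.14, Hyou1 from −0.38 to 0.22, Dnajb11 from −0.31 to 0.0728, Dnajc3 from −0.10 to 0.16, Sdf2l1 from −0.41 to 0.0462, Manf from −0.51 to 0.0605, Pdia3 from −0.15 to 0.0259, Pdia4 from −0.0165 to 0.17, Pdia6 from −0.0372 to 0.18, Sel1l from −0.0602 to 0.0619, Edem1 from −0.19 to 0.0277, Mthfd2 from −0.46 to 0.10, Trib3 from −0.73 to 0.0558 and Chac1 from −0.92 to 0.18. Without WT replicate 1 and Hete replicate 2 together, Canx stood at −0.0541, Hyou1 at 0.10, Dnajc3 at −0.00267, Manf at 0.0898, Edem1 at 0.00777 and Phgdh at −0.16. Canx was −2.7e-05 with the replicate block, and Sel1l was 0.0088 with no filter and 0.00086 in DESeq2. For these signs too the cause was not tested.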

Other observations

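The translocon and signal peptidase bring new proteins into the ER. Of their 15 genes, 0 passed the threshold in edgeR and 14 had 95% intervals within 2-fold either way, with a median log2 fold change of −0.04. Spcs1, a signal peptidase subunit, measured 50.8, 53.9 and 49.0 CPM in Hete livers, against 56.6, 55.8 and 57.2 CPM in WT livers, without overlap (log2 fold change −0.14 ± 0.10, edgeR adjusted p = 0.624). Srp54a, a signal recognition particle gene with near-identical copies, differed by 0.52 ± 0.46 and is uncertain for that reason.

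Of 11 aminoacyl-tRNA synthetase genes tested, several of them known ATF4 targets, 0 passed in edgeR, and all 11 had intervals within 2-fold. Cars, the cysteinyl-tRNA synthetase gene, measured 38.4, 36.5 and 38.5 CPM in Hete livers, against 33.5, 33.5 and 30.6 CPM in WT livers, and its groups did not overlap (0.22 ± 0.10, edgeR adjusted p = 0.411). Wars averaged 21.5 ± 4.86 CPM in Hete and 28.4 ± 6.27 CPM in WT livers (edgeR adjusted p = 0.481). The 8 mitochondrial stress genes all had intervals within 0.5 log2 units either way. Among these, Lonp1, the matrix protease, measured 194, 193 and 182 CPM in Hete livers, against 172, 166 and 178 CPM in WT livers (0.14 ± 0.10, edgeR adjusted p = 0.645), and Dnaja3 differed by −0.16 ± 0.12.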
